A study of Aedes aegypti with 6 samples.

Results

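A total of 715 splice junctions with canonical intron borders, absent from the annotation used by the aligner, recurred in whole-body RNA of Aedes aegypti, the yellow fever mosquito. Each had at least 10 uniquely mapped reads summed over 6 libraries and reads in at least 2 of them. They were 12.7% of the 5609 unannotated canonical junctions listed in any library and a small part of the 21668 junctions of all kinds. The set was thus selected on its read counts, so read totals and the number of libraries describe how the junctions were chosen and were not tested. Just inside the limit stood 18 junctions with exactly 10 reads, and just outside it 17 junctions with 9 reads in at least 2 libraries. A further 2168 unannotated canonical junctions had unique reads in 1 library only and 2550 had none.

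Larvae and adults were collected at 3 locations in Eastern India, whose site labels are K1 (location 1), K3 (location 2) and C (location 3). One pool of 10 mosquitoes was sequenced per stage and location as total RNA with paired reads of 150 bases. The groups are thus 3 larval and 3 adult pools from field collections. The labels used here give no strain, sex, larval instar or adult age. Since each stage has a single pool at a location, the locations serve as replicates. The p-values between stages weigh a difference against the spread between locations, except in fits with the location as a block. Tests between locations weigh a difference against the spread left after stage and location. In whole bodies, fewer cells of a kind and less RNA per cell cannot be told apart.

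In most introns of animals, the transcript carries GT at the donor site, where the intron begins, and AG at the acceptor site, where it ends. The spliceosome can pair a donor with another acceptor, which skips or adds an exon or moves an exon border by a few bases. A spliced aligner records any gap of a read that lies between such letters as a junction. Gaps also arise where a read joins 2 copies of a repeated sequence, such as neighbouring gene copies or repeats inside a coding region. Aedes aegypti has a large genome with many long introns and many repeats. No genome sequence was used here, so the bases at the splice sites are not shown.

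Unique junction reads ranged from 4800179 to 6713268 in the larval libraries, and were 3969566, 1120580 and 1756624 in the adults of locations 1, 2 and 3. Unannotated junctions were listed only from an overhang of 12 bases on, against 1 base for annotated ones. The overhang is the shorter of the 2 stretches of a read aligned on either side of the junction, taken at its highest over the reads. It reached at most 75 bases here. A file listed unannotated junctions of up to 50000 bp from 1 read on, those of 50000 to 100000 bp from 2 reads, those of 100000 to 200000 bp from 3 reads and longer ones from 4 reads. A value of 0 for a long unannotated junction can therefore be a count under that floor. Annotated junctions were listed from 1 read on at every length.

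Most of the recurrent unannotated junctions shared neither end with an annotated junction. Of the 715, 563 (78.7%) had no annotated end, 116 (16.2%) had 1 annotated end, and 36 (5.03%) joined an annotated donor to an annotated acceptor that the annotation does not pair. The junctions without an annotated end held 293534 of 322575 unique reads (91%). Those with 1 annotated end held 20877 reads (6.47%) and those with both held 8164 reads (2.53%). Reads were concentrated on few junctions. The 10 highest held 35% of the reads, and the 70 with at least 1000 reads held 79.6%. The median junction had 53 reads, against 80 for the 8692 annotated junctions that met the same minimum.

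Their introns were long. The median was 19185 bp (quartiles 1068 and 52824), against 417 bp (quartiles 68 and 9634) for annotated junctions. Introns over 10000 bp made up 61.3% of the set and 24.1% of annotated junctions, and introns over 100000 bp made up 16.9% and 0.851%. The classes differed in length. The median was 1808 bp with 1 annotated end, 13408 bp with both ends annotated and 19450 bp with no annotated end. The 3 longest ran over 590236, 587681 and 515137 bp, and none of their ends was annotated. The longest, at chr2:464438252-465028487 on the minus strand outside RefSeq genes, had 142, 149 and 132 reads in larvae of locations 1, 2 and 3 and 821, 181 and 393 in adults, with a longest overhang of 19 bases. At the other end of the scale, introns of 24 bp stood in LOC5576758 (37 reads) and LOC5574496 (34 reads) and one of 30 bp in LOC5567235 (116 reads). Introns under 50 bp numbered 9 in the set and 1 among annotated junctions. Coordinates are those of the deposited junction lists, whose genome build is not given in the sources used here.

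**Figure D1:**
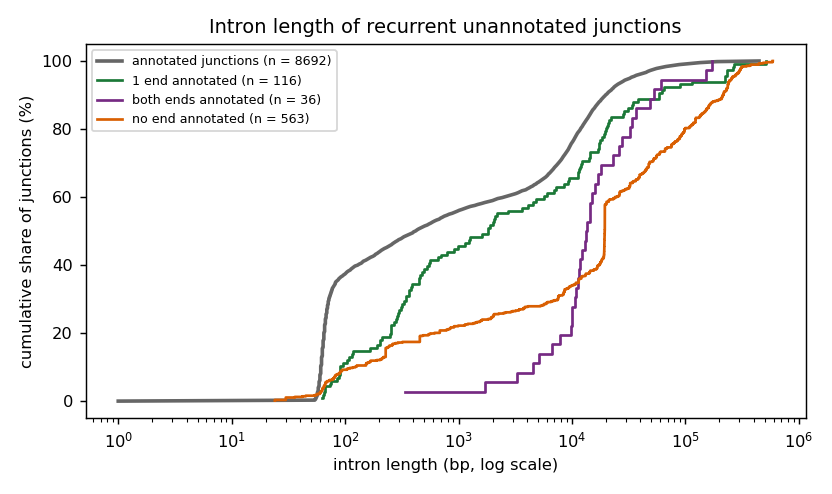
Cumulative share of junctions (vertical axis, %) by intron length (horizontal axis, bp, log scale) for annotated junctions and for the unannotated junctions by the number of annotated ends. The curve without an annotated end rises steeply between 19000 and 20000 bp, where 83 junctions of the LOC5575615 locus lie, and annotated junctions reach their median at 417 bp.

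The evidence per junction was thinner than for annotated junctions. The median longest overhang was 49 bases (range 12 to 75), against 61 for annotated junctions. An overhang of at most 15 bases was the longest seen for 121 of the 715 (16.9%) and for 2.88% of annotated junctions. Among junctions with 10 to 99 reads these shares were 20% and 3.87%, and among those with at least 1000 reads they were 11.4% and 1.34%. The 121 short-overhang junctions had a median length of 118086 bp, against 14196 bp for the others, and they held 11.7% of the reads. In the class with both ends annotated, none of 36 had so short an overhang. Multiply mapped reads outnumbered unique reads at 135 junctions (18.9%), against 0.897% of annotated junctions.

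Gene annotation placed 413 of the 715 junctions (57.8%) inside the bounds of 1 gene, 163 (22.8%) between 2 genes, 62 with 1 end outside genes and 77 with both ends outside, by RefSeq gene bounds of the AaegL5.0 assembly. Of the annotated junctions, 8639 lay inside 1 gene and 0 joined 2 genes. An annotated intron belongs to a transcript of 1 gene, so this 0 is no measured contrast. Among the 163 between genes, 159 had protein-coding genes at both ends. These were immediate neighbours in 69 cases, had 1 to 5 genes between them in 78 and had more in 12, up to 12 genes. The set touched 435 RefSeq genes, 287 of them through 1 junction only. Genes are named by their RefSeq symbols, and no function is given for them here, since the table used pairs them with none. Chromosomes 1, 2 and 3 carried 138, 212 and 354 junctions. The strand of a junction is read from its border letters and that of a gene from its annotated junctions. Where both were known and no end was annotated, 120 of 270 junctions (44.4%) lay on the strand opposite to the gene. For those, the median length was 17515 bp and the median overhang 44 bases, close to the 14426 bp and 44 bases on the gene's own strand.

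By stage, 212 junctions (29.7%) had reads in larvae only, against 21.4% of all 9452 junctions that met the minimum. A further 66 (9.23%) had reads in adults only, against 2.94% of all junctions, and 437 (61.1%) were shared. Reads in all 3 larval and no adult library were found for 75 junctions (10.5%, background 6.63%). Reads in all 3 adult and no larval library were found for 16 (2.24%, background 0.614%). Each larval library had more unique junction reads than any adult library, and adults of location 2 had the fewest junctions of the set with reads, 199. Larvae of location 2 had the most, 587. That library also listed the most junctions of all kinds, 15417 against 3698 to 9437 in the others, and its annotated junctions had a median of 6 reads. In larvae of locations 1 and 3 there were 352 and 403, and in adults of locations 1 and 3 there were 390 and 394. Of the 280 junctions with reads in exactly 2 libraries, 187 (66.8%) had larvae of location 2 as one of them, and 54 had a single read in the smaller library. Without larvae of location 2, 528 of the 715 still had reads in at least 2 libraries. Only 76 junctions had reads in all 6 libraries, 64 of them without an annotated end.

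The share of unique junction reads that fell on the set overlapped between the stages, while the share with multiply mapped reads added did not. It was 1.41%, 2.09% and 0.808% in larvae of locations 1, 2 and 3, and 1.18%, 2.44% and 1.31% in adults. The means were 1.44% ± 0.643 and 1.64% ± 0.691 (SD, n = 3 each), and a 2-sided exact permutation test gave p = 0.7, where the smallest p that 3 against 3 allows is 0.1. Without larvae of location 3 the difference of adults minus larvae was -0.11 percentage points, and without adults of location 2 it was -0.192, in place of 0.205. Counted with multiply mapped reads, the set took 2.79% ± 1.43 of junction reads in larvae and 8.60% ± 4.6 in adults, a difference of 5.8 percentage points with the smallest p allowed (exact permutation p = 0.1). Multiply mapped reads numbered 259646 in the junctions around LOC5571028 and LOC5571033 and 184578 in those at LOC5575615. How far these loci carry the difference was not tested. By class, the junctions with 1 annotated end took 0.0864% ± 0.022 in larvae and 0.0884% ± 0.015 in adults (exact permutation p = 1). Junctions with both ends annotated took 0.0361%, 0.0637% and 0.0427% in the larval libraries and 0.00537%, 0.00598% and 0.00899% in the adult ones. Those groups did not overlap, and the exact permutation p was 0.1, or 0.3 adjusted over the 3 classes. The 2 junctions with most reads held 47.8% of that class.

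**Figure D2:**
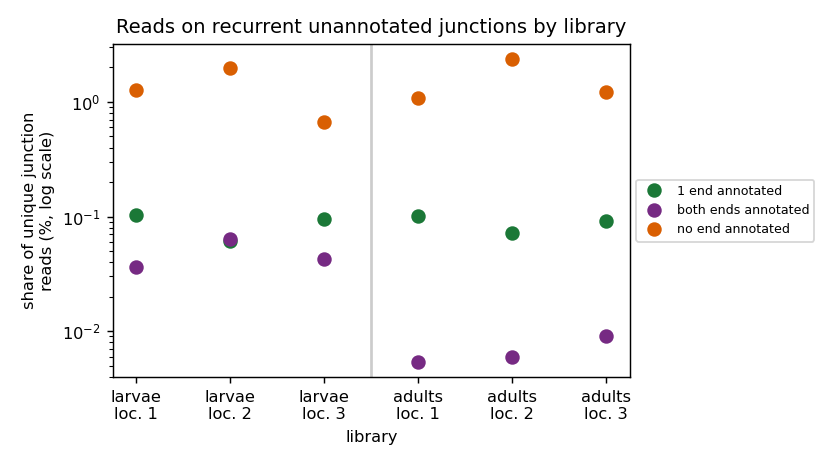
Share of unique junction reads (vertical axis, %, log scale) on the unannotated junctions in each of the 6 libraries, by number of annotated ends, with 1 point per library and class. Junctions with both ends annotated lie between 0.0361% and 0.0637% in larvae and between 0.00537% and 0.00899% in adults.

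Between the stages, 61 junctions of the set (8.53%, background 3.57%) had more unique reads in larvae and 39 (5.45%, background 2.24%) more in adults, by edgeR's quasi-likelihood test with Benjamini-Hochberg adjusted p under 0.05 over all 9452 junctions. DESeq2 gave 55 and 69, so the share of larval calls among all calls was 61% by edgeR and 44.4% by DESeq2. With the location as a replicate block, edgeR gave 38 and 30. Across all junctions the median log2 fold change of adults over larvae was -0.79, and across the set it was 0.11, which is 0.90 above the median of all. By class the median was 0.17 with 1 annotated end, -1.21 with both and 0.14 with none. Of the 61 larval calls, 53 had no annotated end, 7 both and 1 one; 55 had no adult read and 32 joined 2 genes. Of the 39 adult calls, 37 had no annotated end and 9 had no larval read. For 31 of the 61 and 8 of the 39, the call held when any 1 library was left out. The number of adult calls was 11 without larvae of location 1 and 14 without larvae of location 3, and the number of larval calls was 37 without larvae of location 2.

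**Figure D3:**
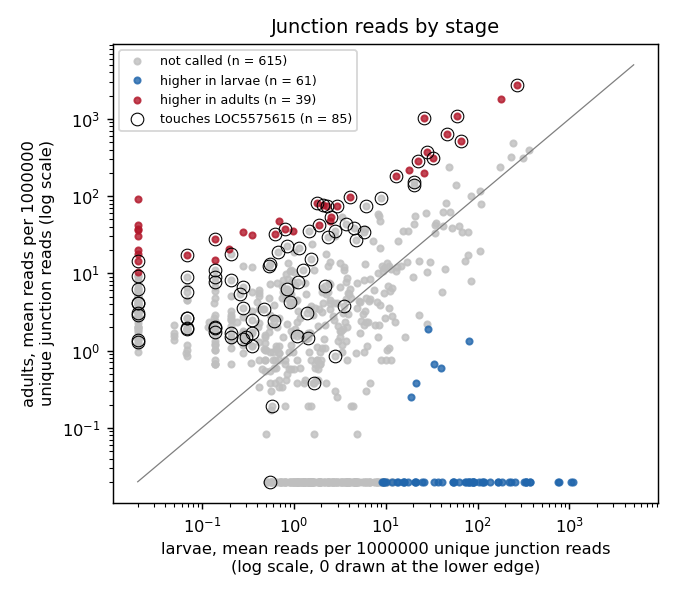
Mean CPM (unique reads scaled to the library's unique junction reads) in adults (vertical axis) against larvae (horizontal axis), both on log scales, for the 715 junctions, with a value of 0 drawn at the lower edge and the line of equality in grey. The 61 junctions higher in larvae (blue) lie mostly at 0 in adults, and circles mark the 85 junctions of the LOC5575615 locus, 21 of which are among the 39 higher in adults (red).

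Many junctions were clustered. Joined by overlap of their introns on either strand, they formed 332 runs, 245 of them single junctions and 9 with at least 10 junctions. The 5 runs with the most reads held 138 junctions (19.3%) and 52.3% of the reads. These runs and the set of repeated lengths described below were picked with their values known. In each of the 5 runs, the stages did not overlap in the share of junction reads (exact permutation p = 0.1, adjusted p = 0.12 over the 6 sets compared). The same held for 67 of all 332 runs (20.2%) and for 24 of the 42 runs with at least 1000 reads (57.1%). Outside the 5 runs, 73.8% of 577 junctions still had no annotated end, and the median length was 13473 bp.

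The largest run, on chromosome 3 at the locus of LOC5575615 and the transcribed pseudogenes LOC110678114 and LOC110678115, held 85 junctions and 61457 reads; these 3 genes are the 3 with the most junctions. The files listed no annotated junction in these genes. All 85 lay between bases 135889181 and 135910317 and had no annotated end. Their lengths were nearly constant: 83 fell between 19000 and 20000 bp, and 24 measured exactly 19494 bp, with start points spread along the locus. Of these 24, 19 were on the plus strand and 5 on the minus strand. Multiply mapped reads, 184578, exceeded unique reads.

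Of the 85 junctions at LOC5575615, 21 rose in adults (24.7%, background 2.24%) and 0 in larvae (background 3.57%). The 85 overlap at 1 locus, so their calls are not separate results. For the run as a whole the exact permutation p was 0.1, or 0.12 adjusted over the 6 sets compared. The reads of the run were 2841, 4742 and 3575 in larvae of locations 1, 2 and 3 and 23572, 16375 and 10352 in adults. As a share of unique junction reads this was 0.0697% ± 0.0253 in larvae and 0.881% ± 0.502 in adults (SD, n = 3 each), with adults of location 2 highest at 1.46%. The junction with the most reads of all, chr3:135889845-135909338 (17971 reads), had 310, 333 and 171 CPM in larvae and 1224, 5601 and 1446 in adults. Every adult value lay above every larval one, and the log2 fold change was 3.06 (SE 0.59, edgeR adjusted p = 9.621e-06). The call was kept in 5 of 6 fits that each left out 1 library, with a largest edgeR adjusted p of 0.083. Stages that did not overlap were found for 182 of the 715 junctions (25.5%). That share was not computed over all 9452 junctions tested, so whether it is high cannot be said. The locus thus held 21 of the 39 adult calls, and the count without it is 18. Without the locus the share of junction reads on the set was 1.37% ± 0.62 in larvae and 0.763% ± 0.197 in adults (exact permutation p = 0.2).

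Next to it in reads stood a pair of neighbouring runs on chromosome 2, the first touching LOC5565377, LOC5565383 and LOC5565396 among others and the second LOC5565359, LOC5565392 and LOC5565371. The first held 13 junctions between bases 288426176 and 288472188. It had 10566, 26646 and 1113 unique reads in larvae of locations 1, 2 and 3 and 0 in every adult library. Multiply mapped reads of this run, 61720, exceeded its 38325 unique reads. The second held 8 junctions between bases 288514337 and 288624136, with 6432, 19803 and 109 larval reads and 0, 0 and 7 adult reads. Larvae of location 2 were highest and those of location 3 lowest in both runs. The leading junction, from LOC5565383 to LOC5565396 (26281 bp), had 6611, 9082 and 502 larval reads and 0 adult reads. Those were unique reads, 16195 in all, beside 19657 multiply mapped ones. With 3 adult reads over the 3 libraries taken as the floor, larvae exceeded adults at least 2506-fold (edgeR adjusted p = 1.189e-31). The call was kept with any 1 library left out, with a largest edgeR adjusted p of 0.0001588. The next, from LOC5565377 to LOC5565383 (13254 bp), had 1670, 13119 and 405 larval reads and lay on the strand opposite to these genes. It was at least 2380-fold higher in larvae (edgeR adjusted p = 2.696e-33, and at most 0.0005959 with any 1 library left out). The junction from LOC5565359 to LOC5565392 (66331 bp) had 2435, 8335 and 16 larval reads and no adult read, at least 1695-fold higher in larvae, although at this length a file lists a junction from 2 reads on. These junctions were among those named for reads in all 3 larval libraries and none in adults. Their folds and p-values are thus not independent of that choice.

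LOC5567235 on chromosome 3 held 16 short junctions between bases 332425905 and 332426217. Their introns measured 30 to 246 bp, and 15 lengths were multiples of 3. All 16 had reads in larvae only: 14477, 13367 and 2211 at locations 1, 2 and 3. The gene's annotated junction is on the minus strand, and 14 of the 16 were on the plus strand. The highest, of 153 bp, lay on the gene's own strand and had 6303, 4468 and 831 larval reads and none in adults. It was at least 1765-fold higher in larvae (edgeR adjusted p = 1.012e-25, and at most 6.289e-05 with any 1 library left out). This junction too was named for reads in all 3 larval libraries and none in adults. Of the 16, 11 passed the test as higher in larvae, against 3.57% of all junctions. The 16 lie in 1 short stretch, so their calls are not separate results. One junction of 30 bp had 1, 1605 and 0 larval reads, so it rested almost wholly on location 2.

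On chromosome 3, 17 junctions around LOC5571028 and LOC5571033 held 12477 unique and 259646 multiply mapped reads. Nearly all unique reads fell on 1 junction of 86982 bp outside genes, which had 1051, 1230 and 516 reads in larvae of locations 1, 2 and 3 and 2439, 4237 and 1819 in adults. Every adult value lay above every larval one, as did one stage above the other for 25.5% of the set. The log2 fold change was 2.99 (SE 0.63, edgeR adjusted p = 8.583e-05). The call was kept in 5 of 6 fits that each left out 1 library, with a largest edgeR adjusted p of 0.156. The longest overhang of this junction was 26 bases.

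Constant lengths were found at these loci and beyond them. At least 1 other junction of the same length and strand started within 10000 bp for 107 of the 715 junctions (15%), in 35 sets, against 1.46% of annotated junctions. Of the 107, 33 were at LOC5575615, and outside the 5 runs there were 62 of 577 (10.7%). Above 1000 bp this held for 69 of 536 junctions (12.9%), for 31 of 415 outside the 5 runs (7.47%) and for 0 of 3819 annotated ones. Between the neighbours LOC5580219 and LOC5580220, 4 junctions of 11465 bp on the plus strand had 609, 1214 and 1281 reads in larvae and none in adults. Between LOC5570262 and LOC5570266, a pair of plus-strand junctions of 31957 bp had 2978, 1100 and 2129 larval reads and none in adults. These last sets were chosen after their values were seen.

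A repeated length of 228 bp, or 76 codons, marked a pair of loci on chromosome 3. Of the 216 junctions of at most 3000 bp, 36 had a length that was a whole multiple of 228: 15 of 228 bp, 9 of 456 bp, 4 of 684 bp, 2 each of 912, 1140 and 2052 bp, and 1 each of 1596 and 1824 bp. Among 5279 annotated junctions of at most 3000 bp, 10 were such multiples. LOC5579172, which overlaps the noncoding gene LOC110679547, held 24 of the 36 and LOC5566847 the other 12. In LOC5566847, 6 of the junctions were on each strand, and in LOC5579172 there were 20 on the plus and 4 on the minus strand. Reads on the 36 numbered 3186, 2079 and 4075 in larvae of locations 1, 2 and 3 and 2305, 621 and 1303 in adults. That was 0.056% ± 0.0111 of junction reads in larvae and 0.0626% ± 0.0102 in adults (exact permutation p = 0.6). None of the 36 passed the stage test, against 3.57% of all junctions higher in larvae and 2.24% higher in adults. LOC5579172 held 31 junctions in all. One of them, of 4088 bp and chosen after its values were seen, had 455, 0 and 281 reads in adults of locations 1, 2 and 3 and none in larvae (edgeR adjusted p = 9.633e-11).

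**Figure D4:**
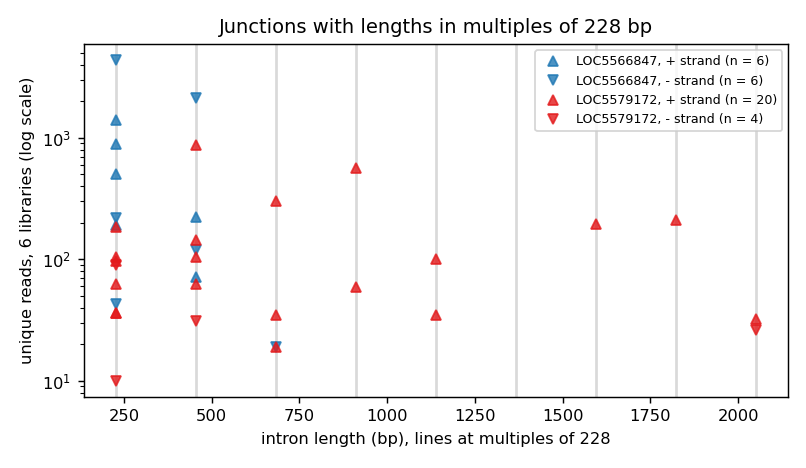
Unique reads over 6 libraries (vertical axis, log scale) against intron length (horizontal axis, bp) for the 36 junctions whose length is a multiple of 228 bp, with colours for the gene and triangles for the strand. The points stand on the grey lines at whole multiples of 228 bp, from 228 to 2052 bp.

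Junctions with 1 annotated end came nearest to alternative splice sites of known introns. A new donor was used by 56 and a new acceptor by 60 of the 116. The new end lay within 12 bases of the annotated one in 35, 22 of them acceptors and 13 donors, and beyond 300 bases in 57. Of the 35, 28 made the intron longer and 7 shorter. A shift of 4 bases was the commonest, at 7 acceptors and 4 donors, and 13 of the 35 shifts were multiples of 3. Among the 59 within 300 bases, 22 (37.3%) were multiples of 3. The near-site junctions were mostly minor: their median share of the reads of the pair with the annotated junction was 0.118%, and 6 exceeded 10%.

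The near-site junction with the most reads, in LOC5580231, moved the donor 12 bases into the exon, for an intron of 524 bp (chr1:160911003-160911526, plus strand). It had 288, 175 and 348 reads in larvae of locations 1, 2 and 3 and 1220, 248 and 311 in adults. It made up 2.02%, 1.27% and 2.12% of the reads that use this acceptor in larvae, and 1.17%, 1.47% and 1.16% in adults, and edgeR's diffSpliceDGE test of this share gave an adjusted p of 1. In LOC5566843 an acceptor 4 bases further on had 142, 393 and 310 larval and 312, 0 and 65 adult reads, between 0% and 4.39% of the pair in any library. In LOC5568355 a donor 4 bases inside the annotated intron had 276, 87 and 346 larval and 147, 63 and 51 adult reads. This junction had 970 unique reads in all and more multiply mapped ones, 1692. Its share of the pair was 21.1%, 9.99% and 25.8% in larvae and 34.4%, 96.9% and 36.2% in adults, where the adults of location 2 had 63 reads of this junction and 2 of the annotated one. LOC5574485, with an acceptor shift of 2 bases and 249 reads, and LOC5571564, with a shift of 4 bases and 165 reads, completed the 5 highest.

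Larger moves gave some junctions that outweighed the annotated one. In LOC5576127 an acceptor 1242 bases inside the annotated intron had 763, 356 and 651 reads in larvae of locations 1, 2 and 3 and 173, 0 and 335 in adults. It took 85%, 83.6% and 70.7% of the pair in larvae and 45.1% and 93.6% in adults of locations 1 and 3, with no read of the pair in adults of location 2. A junction from LOC5571664 into sequence outside genes (8450 bp) had 460, 249 and 1195 larval and 103, 28 and 14 adult reads, with a log2 fold change of -2.45 (SE 0.99, edgeR adjusted p = 0.147). The junction of 231284 bp from LOC110678856 to LOC5570219 had 1490 unique and 2791 multiply mapped reads. The class of 116 held 1 larval call (0.862%, background 3.57%) and 2 adult calls (1.72%, background 2.24%). All of them were chosen here after their values were seen. The larval one was a new acceptor in LOC110678413 (103 bp), with 76, 28 and 978 larval reads and none in adults (edgeR adjusted p = 4.183e-06). The adult ones were a new acceptor in LOC5576127 (2116 bp), with 200, 0 and 16 reads in adults of locations 1, 2 and 3 and none in larvae (edgeR adjusted p = 0.000508), and the junction of LOC5569815 described below with its group (edgeR adjusted p = 0.0467).

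Junctions that paired annotated ends anew had most of their reads in larvae, with 7726 larval and 438 adult reads. Of the 36, 25 lay in 1 gene and 11 joined 2 genes. The stage test called 7 as higher in larvae (19.4%, background 3.57%) and 0 as higher in adults (background 2.24%). The highest, from LOC5576677 to LOC5576669 (7779 bp), had 206, 466 and 1813 reads in larvae of locations 1, 2 and 3 and none in adults. It was at least 311-fold higher in larvae (edgeR adjusted p = 1.177e-10, and at most 0.0002786 with any 1 library left out). An intron of 340 bp in LOC5570087 and the overlapping LOC110675571 had 677, 341 and 397 larval reads and none in adults. It was at least 202-fold higher in larvae (edgeR adjusted p = 2.87e-08, and at most 0.0002232 with any 1 library left out). The junction from LOC110677263 to LOC110677266 (13473 bp) had 32, 1131 and 0 larval reads, so its call rested on location 2. The junction of 33907 bp in the overlapping genes LOC5572409 and LOC5572417 had 81, 483 and 15 larval and 7, 0 and 0 adult reads. That from LOC5564109 to LOC5564124 had 181, 74 and 87 larval reads and 2 adult reads, all at location 3 (edgeR adjusted p = 0.048), and its call was kept in 1 of 6 fits that each left out 1 library.

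Junctions with reads in adults only were fewer. The ones named here were picked for reads in all 3 adult libraries and none in larvae. Their folds and p-values are thus not independent of that choice. Between LOC5575401 and LOC5575400, junctions of 48396 bp stood on both strands. The minus-strand one had 253, 16 and 52 reads in adults of locations 1, 2 and 3 and the plus-strand one had 47, 58 and 113, with none in larvae. Against the floor of 3 larval reads adults exceeded larvae at least 197-fold and at least 234-fold (adjusted p of 3.753e-06 and 1.686e-06 by edgeR). A junction from LOC5570331 to LOC23687983 (23230 bp) had 235, 32 and 5 adult reads and none in larvae, at least 166-fold higher. One of 153854 bp from LOC5568195 had 36, 104 and 21 adult reads, but its longest overhang was 12 bases, the shortest listed, and at its length a file lists a junction only from 3 reads on.

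Pairs of junctions can frame an exon inside an annotated intron. Of the 5 such exons with the most reads, 1 had both junctions in the set. In LOC5566990 an unannotated exon of 106 bp (chr2:293815945-293816050, minus strand) interrupts an annotated intron. The junction on its left in genome order had 111, 33 and 78 reads in larvae of locations 1, 2 and 3 and 75, 40 and 44 in adults, and the one on its right had 322, 104 and 278 and 352, 77 and 55. The annotated junction that skips it had 673, 431 and 639 reads in larvae and 231, 9 and 46 in adults. Inclusion, the mean of the 2 framing counts over that mean plus the skipping count, was 24.3%, 13.7% and 21.8% in larvae and 48%, 86.7% and 51.8% in adults. Every adult library lay above every larval one, with means of 19.9% ± 5.54 and 62.2% ± 21.3 (SD, n = 3 each, exact permutation p = 0.1). The edgeR group tests of the 2 ends gave adjusted p = 0.463 and 0.524. The length of 106 bp is not a multiple of 3.

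**Figure D5:**
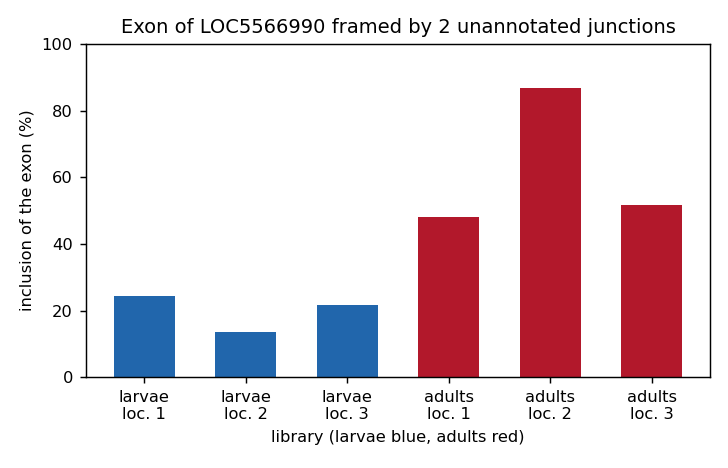
Inclusion (vertical axis, %) of the exon of LOC5566990 framed by 2 unannotated junctions in each of the 6 libraries, as bars from 0, computed from the junction reads. The 3 larval libraries (blue) lie between 13.7% and 24.3% and the 3 adult libraries (red) between 48% and 86.7%, the highest with 9 skipping reads.

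The other framed exons each had 1 junction in the set. In LOC5580231 the donor 12 bases earlier frames an exon of 99 bp with an annotated junction. The annotated donor 12 bases further on took 97.1%, 95.8% and 97.4% of the reads at this acceptor in larvae and 28.1%, 97.5% and 29.8% in adults. The annotated junction that skips the exon with either donor had 108, 403 and 78 reads in larvae of locations 1, 2 and 3 and 73491, 181 and 18560 in adults. In LOC5571785 the exon of 174 bp was included at 0.0275%, 1.77% and 2.65% in larvae and at 4.28%, 0% and 3% in adults. In LOC5574604 an exon of 3 bp was framed by junction positions only. Its unannotated junction had 43 reads, 39 of them in larvae of location 1. The longest overhang of that junction was 18 bases, longer than the exon, so its reads do not establish an exon of this length. The exon of 114 bp in LOC5573556 rested on 10 reads, all in adults.

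The share of a junction among those that use the same donor or acceptor was tested in 620 groups with 1372 rows, 440 of them for 337 junctions of the set. By edgeR's diffSpliceDGE, 5 rows passed (0.364%), none of them for a junction of the set. The smallest adjusted p in the set was 0.177, for a junction of LOC5569815, and 16 of its rows (3.64%) had an unadjusted p under 0.05, against 5.83% of all rows. The test of whole groups called 12 of 620 (1.94%), among them 4 of the 266 groups that hold a junction of the set (1.5%). These were in LOC5576127, LOC5580231, LOC5569815 and LOC5568131, with group-level adjusted p of 0.00441, 0.000464, 0.0411 and 3.45e-05. In LOC5568131 the unannotated junction of 662 bp had 24, 10 and 15 reads in larvae of locations 1, 2 and 3 and 0, 0 and 11 in adults. It made up 41.4%, 23.8% and 45.5% of the reads from its shared end in larvae and 0%, 0% and 1.01% in adults, where an annotated junction of 11362 bp took 98.7%, 89.1% and 98.6%. In LOC5580231 an annotated junction carried the difference, with 0.757%, 2.93% and 0.475% of its group in larvae and 70.7%, 1.07% and 69.1% in adults. Adults of location 2 thus stood with the larvae there. In LOC5569815 the unannotated junction of 17361 bp had 66 of its 74 reads in adults of location 2, where it was the only junction read from its group. The number of groups called fell from 4 to 1 without larvae of location 1 or without adults of location 1.

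Between the locations, with stage as covariate, 13 junctions of the set passed of 32 among all junctions (background 0.339%), by edgeR's quasi-likelihood test with adjusted p under 0.05. The fit has 2 residual degrees of freedom. DESeq2's likelihood ratio test called 0, and 37 junctions of the set had an unadjusted edgeR p under 0.05. Of the 13, 10 had no adult read, and 10 were highest in larvae of location 2. The smallest p was for the 30 bp junction in LOC5567235 with 1, 1605 and 0 larval reads (edgeR adjusted p = 6.442e-06). With no adult reads and 1 larval pool per location, such a difference between locations cannot be told apart from a difference between single pools.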

How the data were processed

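Per the labels' protocols, total RNA of whole-body pools was sequenced as paired reads of 150 bases. Per the submitters' processing notes, STAR was run along with cutadapt, fastp and FastQC, and edgeR is also named; no source used here states versions, a genome build or the annotation. The deposited junction files hold, for each intron, counts of uniquely and of multiply mapped reads; the deposited column of longest overhangs holds another quantity, bases. The deposited gene counts served for depth only (3271618 to 18328454 reads assigned per library). Counts without molecular identifiers are not independent molecules.

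The files of the 6 libraries were joined by chromosome, start, end and strand. An end was called annotated when an annotated junction of the same strand listed in any library had it. RefSeq symbols and gene order were matched by position and are used for names only. All junctions with at least 10 unique reads in at least 2 libraries were fitted together with edgeR 4.0.16 (TMM, quasi-likelihood, stage as the only term) in R 4.3.3, and shared-end groups with diffSpliceDGE. An adjusted p under 0.05 was a call. Exact permutation tests used scipy 1.17.1. DESeq2 1.42.0, other scalings and filters, multiply mapped reads, the replicate block and each left-out library were alternatives. A fold against a stage with no read was bounded with 3 reads over its 3 libraries. Scripts were tested on simulated data. Junctions named are the highest by reads per class, stage and shift, the longest and shortest, the framed exons and the richest genes; others are said to be chosen after their values were seen. The junction set and these lists were chosen with earlier results of these data known.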

Additional observations from a re-analysis of the deposited data

Results flagged for a closer look

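Outside the recurrent set, 422 unannotated canonical junctions had at least 10 unique reads but all of them in 1 library, which is why they were set aside: a signal in data that the comparisons do not use. They numbered 80, 53 and 136 in larvae of locations 1, 2 and 3 and 97, 43 and 13 in adults. The median was 17 reads and the highest 644. An annotated end was shared by 98 of them (23.2%), their median length was 19182 bp, and 26.1% had a longest overhang of at most 15 bases. A value from 1 library has no replicate.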

How the results depend on the processing

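Against 61 junctions higher in larvae and 39 higher in adults, DESeq2, which gave an adjusted p to 5898 junctions, called 69 in adults, and unique plus multiply mapped reads gave 59 in adults. Leaving out each library in turn gave 37 to 53 in larvae and 11 to 45 in adults. Alternatives added after seeing the data gave 18 in adults without the members that touch LOC5575615, and 40 in larvae with an overhang over 15 bases and multiply mapped reads not above unique ones. The remaining alternatives stayed within 1.5 times (14 of 17 in larvae, 12 of 17 in adults); 41 and 32 were left without introns over 50000 bp. The median log2 fold change of all junctions shifted by 0.15 with RLE scaling and by 0.14 with DESeq2. Within shared-end groups, unique plus multiply mapped reads gave 1 junction higher in adults against 0. The whole-group test, also added, gave 1 to 4 groups. Between locations DESeq2 gave 0 against 13, and the other settings 11 to 16. The share difference of 0.205 percentage points ranged from -0.192 to 0.533 over left-out libraries and was -0.11 without larvae of location 3, -0.192 without adults of location 2 and -0.607 without the LOC5575615 members. With unique plus multiply mapped reads it was 5.8 points (exact permutation p = 0.1). The cause of these moves was not tested. Under 3 alternatives the shares with 1, both and no annotated end were 15.6% to 17.3%, 3.78% to 5.34% and 77.4% to 80.4%.

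Larvae and adults with the same number come from the same collection site. With the replicate block, calls fell to 38 in larvae and 30 in adults, groups called fell from 4 to 1, and the count within groups stayed at 0. Same-numbered pools did not deviate together (correlations -0.0156, 0.0346 and 0.0242 over 4726 junctions), and only larvae of location 2 correlated best with their own number.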
